A study of Bos taurus with 12 samples.

Results

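The data concern 10 marker genes of the mammary epithelium, measured in mammary biopsies of 12 cows. They are 4 keratin genes of the luminal layer (KRT7, KRT8, KRT18 and KRT19), 4 genes of the basal and myoepithelial layer (KRT5, KRT14, ACTA2 and TP63) and 2 genes of epithelial cell adhesion (EPCAM and CDH1). The genes were chosen by name as markers of these layers, and no measured value enters the rule, though earlier results of these data were known when they were chosen. Non-control probes were assigned to them through the RefSeq accession that the array gives for each probe. All 10 genes were found, with 20 probes of the 43653 on the array, among 12639 genes that could be named in this way. KRT8 had 4 probes and KRT18 had 3. KRT5, KRT14, KRT19, EPCAM and CDH1 had 2 each, and KRT7, ACTA2 and TP63 had 1 each.

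The study asked how feed restriction in early lactation changes the mammary response to an inflammatory challenge. Multiparous Holstein cows at 24 ± 3 days in milk stayed on a lactation diet offered ad libitum (CONT, n = 6) or received for 4 d a ration diluted with barley straw at 48% of the dry matter (REST, n = 6). On d 3, all cows of both groups were infused with 50 µg of Escherichia coli lipopolysaccharide (LPS) in 1 healthy rear gland of the udder, and mammary tissue was biopsied 24 h later. No unchallenged gland is among the 12 arrays, so that the comparison is between 2 diets after LPS. The RNA of each cow (100 ng) was amplified, labeled with the dye Cy3 and read on an array of its own, a one-color bovine design from Agilent. Ages are not given in the sources used here.

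The ducts and alveoli of the mammary gland are built of an inner luminal layer and an outer basal layer. Luminal cells carry the simple keratins, of which KRT8 and KRT18 pair with each other to form filaments, and in lactation the alveolar luminal cells secrete the milk. The basal layer consists of myoepithelial cells, which carry the KRT5 and KRT14 filament pair and smooth muscle actin, and contract in response to oxytocin to eject the milk. In a biopsy of whole tissue, fewer cells of a type and less RNA per cell cannot be told apart.

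Signals are given as log2 intensity minus that of the array's 75th percentile, so that 1 unit is a 2-fold difference and 0 is the 75th percentile itself. Each gene is represented by its brightest probe, and signals of different genes are not compared with each other. The software called 19 of the 20 probes well above background in every cow, none was saturated and none had a missing value. The exception was TP63. The 75th percentile itself was 577 to 1184 intensity units in CONT and 387 to 1082 in REST. The software called 57.6 to 76.0% of the probes well above background in CONT and 63.2 to 78.1% in REST. Correlations between arrays ranged from 0.932 to 0.984. The arrays lay on 3 slides, with 3 CONT cows and 1 REST cow on slide 1, the reverse on slide 2, and 2 cows of each diet on slide 3. Negative control spots were brighter on slide 1 (7.24 to 18.3 units) than on slide 2 (3.81 to 5.46) and slide 3 (4.17 to 5.72). CONT cow 6 stood apart from the other CONT cows in markers of other cells, with a mean log2 signal of -1.07 for endothelial markers, where the other 5 had 0.69 to 0.93, and values without it are given below beside many of the results.

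No difference between REST and CONT passed the test for any of the 10 marker genes. With limma's moderated test and Westfall-Young adjustment over all probes, 0 of the 20 probes were called, against 0 of all 43653 probes (0%). The adjusted p was 1 for each of them, by Westfall-Young and, after rounding, also by Benjamini-Hochberg. At an unadjusted p under 0.05 there were again 0 of the 20 probes, where 1143 of 43653 probes (2.62%) passed. The lowest unadjusted p among the markers was 0.140, for KRT19. In 0 of the 10 genes and 0 of the 20 probes did the 6 REST cows lie wholly above or below the 6 CONT cows, as they did for 19 of the 12639 named genes (0.15%) and 56 of all probes (0.128%). The mean was higher in REST for 4 of the 10 markers, with a median difference of -0.02 on the log2 scale. Among all named genes 5500 (43.5%) had a higher mean in REST, with a median of -0.03. Over probes, the mean was higher for 9 of the 20, against 46.1% of all. The intervals around most of these differences were wide, and they are given below for each gene. Without CONT cow 6 the signs of KRT5, KRT7 and KRT8 turned, with differences of 0.12, 0.11 and 0.07, KRT14 was at 0.25, KRT18 at -0.21 and CDH1 at 0.38, and again 0 of the 10 markers were called.

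**Figure D1:**
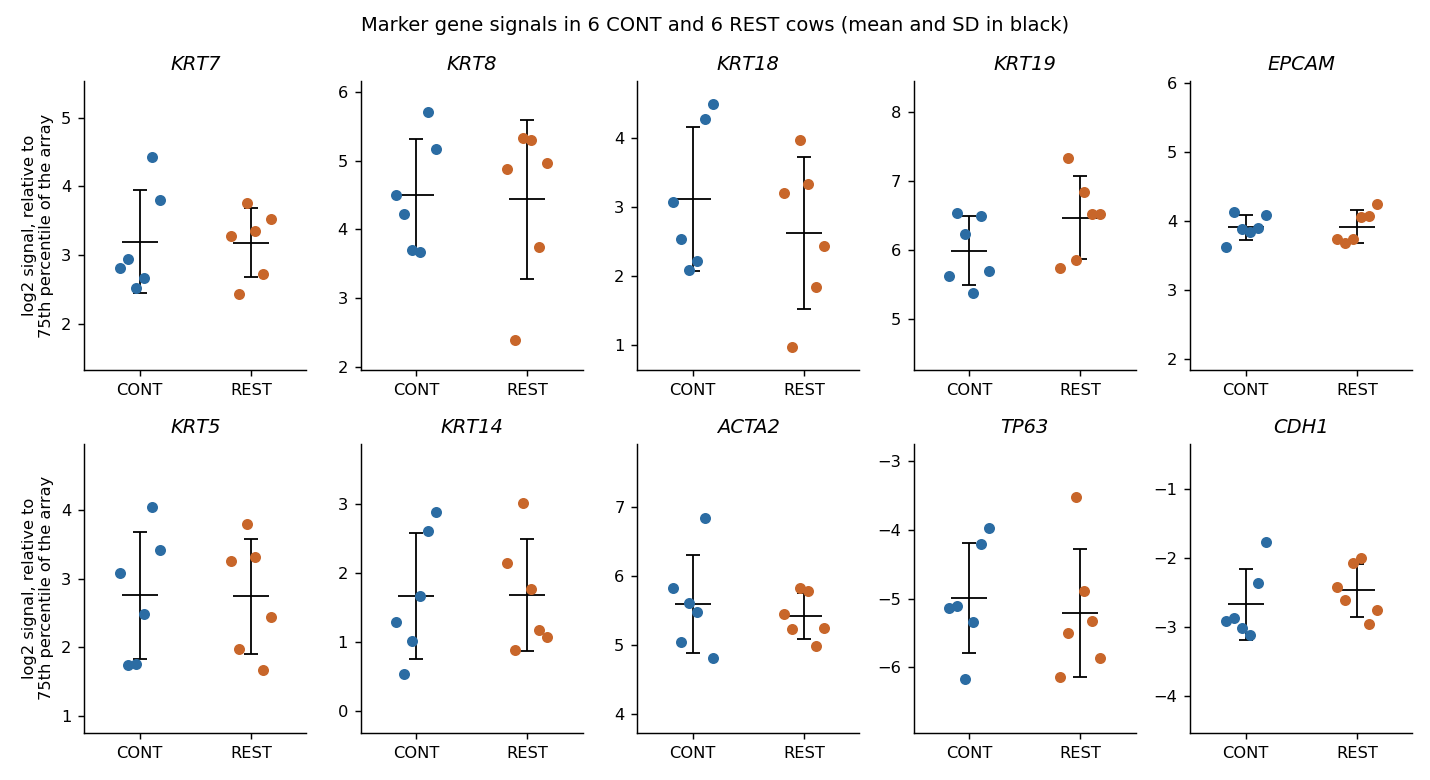
Log2 signal of the brightest probe of each marker gene, relative to the 75th percentile of the array, in the CONT (blue) and REST (orange) cows. Each point is 1 cow, the black bars are the mean and SD of 6 cows, and all panels span the same number of log2 units. The groups overlap in every panel, and EPCAM shows the narrowest spread.

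Among the luminal keratins, the signal of KRT18 had the widest spread between cows of the 10 markers. KRT18 is the type I partner of KRT8 in simple epithelia. Its log2 signal ran from 2.08 to 4.50 in CONT, with a median of 2.80, and from 0.96 to 3.98 in REST, with a median of 2.81. REST cows 2 and 5 lay below the lowest CONT cow and the other 4 lay within the CONT range. The mean was 3.11 ± 1.05 (SD, n = 6) in CONT and 2.62 ± 1.105 in REST. The difference was -0.49 ± 0.56 (SE), with a 95% interval of -1.71 to 0.74, or 0.305-fold to 1.67-fold. The exact permutation test over the 924 arrangements of the cows, two-sided, gave p = 0.446. With slide as a block the difference was -0.28, and it was -0.16 without REST cow 2.

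KRT8, the type II partner, had log2 signals of 3.68 to 5.71 in CONT, around a median of 4.36, and of 2.40 to 5.32 in REST, around a median of 4.92. REST cow 2 was the lowest of the 12 and CONT cow 5 the highest. The means were 4.50 ± 0.81 and 4.44 ± 1.15 (SD, n = 6 each), and the difference was -0.06 ± 0.52 (SE), with an interval of -1.20 to 1.07. In KRT7, another type II keratin of ductal and luminal cells, the CONT cows spanned 2.53 to 4.43 (median 2.88) and the REST cows 2.44 to 3.77 (median 3.32). The difference in KRT7 was -0.02 ± 0.35 (SE), with an interval of -0.77 to 0.73. For both genes 4 of 6 REST cows lay above the CONT mean although the mean difference was negative, and the sign of both differences turned positive when the slide was a term of the model (0.18 for each).

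KRT19, the smallest of the type I keratins, gave the lowest p of the markers. The CONT cows spanned log2 signals of 5.37 to 6.54 (median 5.97) and the REST cows 5.75 to 7.34 (median 6.52). REST cows 2 and 4 lay above the highest CONT cow, and the other 4 lay within the CONT range. The difference was 0.48 ± 0.30 (SE), 1.39-fold, with an interval of -0.18 to 1.13 (exact permutation p = 0.156, two-sided). The second probe of KRT19 gave the same difference, 0.48 ± 0.32. It kept its sign when any 1 cow was left out, with values of 0.30 to 0.62. Within slides it was 1.28 on slide 2, where CONT was represented by 1 cow, 0.22 on slide 3 and -0.39 on slide 1, where REST was represented by 1 cow.

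In the basal and myoepithelial group, KRT5 and KRT14 had almost equal means in both diets. KRT5 ranged from 1.74 to 4.05 in the CONT cows, with a median of 2.78, and from 1.67 to 3.79 in the REST cows, with a median of 2.85, and the difference was -0.01 ± 0.47 (SE), with an interval of -1.03 to 0.998. KRT14, its type I partner, ranged from 0.53 to 2.88 (CONT median 1.48) and from 0.87 to 3.02 (REST median 1.47), with a difference of 0.01 ± 0.46 and an interval of -0.99 to 1.01. With slide as a block the differences were 0.13 for KRT5 and 0.20 for KRT14. As ratios, the KRT14 interval runs from 0.504-fold to 2.01-fold, and the groups overlapped almost fully for both genes.

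ACTA2 encodes the smooth muscle actin of myoepithelial cells and also of the smooth muscle around vessels. The CONT cows spanned log2 signals of 4.80 to 6.84 (median 5.54) and the REST cows 4.98 to 5.82 (median 5.35), and all 6 REST cows lay within the CONT range. The lowest and the highest of the 12 cows, CONT cow 6 and CONT cow 5, were both in CONT. The difference was -0.18 ± 0.31 (SE), with an interval of -0.84 to 0.49, and it was 0.07 without CONT cow 5 and -0.34 without CONT cow 6.

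TP63, the transcription factor that maintains basal cells, exceeded background clearly in 3 CONT cows and 1 REST cow, so that its values lie near the limit of the array. They spanned -6.17 to -3.97 among CONT cows (median -5.12) and -6.14 to -3.53 among REST cows (median -5.41). The difference of -0.22 ± 0.46 (SE) had an interval of -1.21 to 0.78, and it was -0.01 without CONT cow 6 and -0.55 without REST cow 3.

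Of the adhesion genes, EPCAM gave the tightest comparison. EPCAM, a surface glycoprotein of epithelial cells, had log2 signals between 3.62 and 4.12 in CONT and between 3.67 and 4.25 in REST, with a median of 3.89 in both. The difference was 0.01 ± 0.15 (SE), and its 95% interval ran from -0.32 to 0.34, or 0.799-fold to 1.27-fold. The second EPCAM probe gave 0.16 ± 0.22, with a wider interval of -0.31 to 0.63. CDH1 is E-cadherin, which joins epithelial cells at adherens junctions. The CONT cows spanned -3.11 to -1.77 (median -2.89) and the REST cows -2.97 to -1.9998 (median -2.52), a difference of 0.20 ± 0.26 with an interval of -0.35 to 0.76. The second CDH1 probe gave a difference of the opposite sign, -0.10 ± 0.25.

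**Figure D2:**
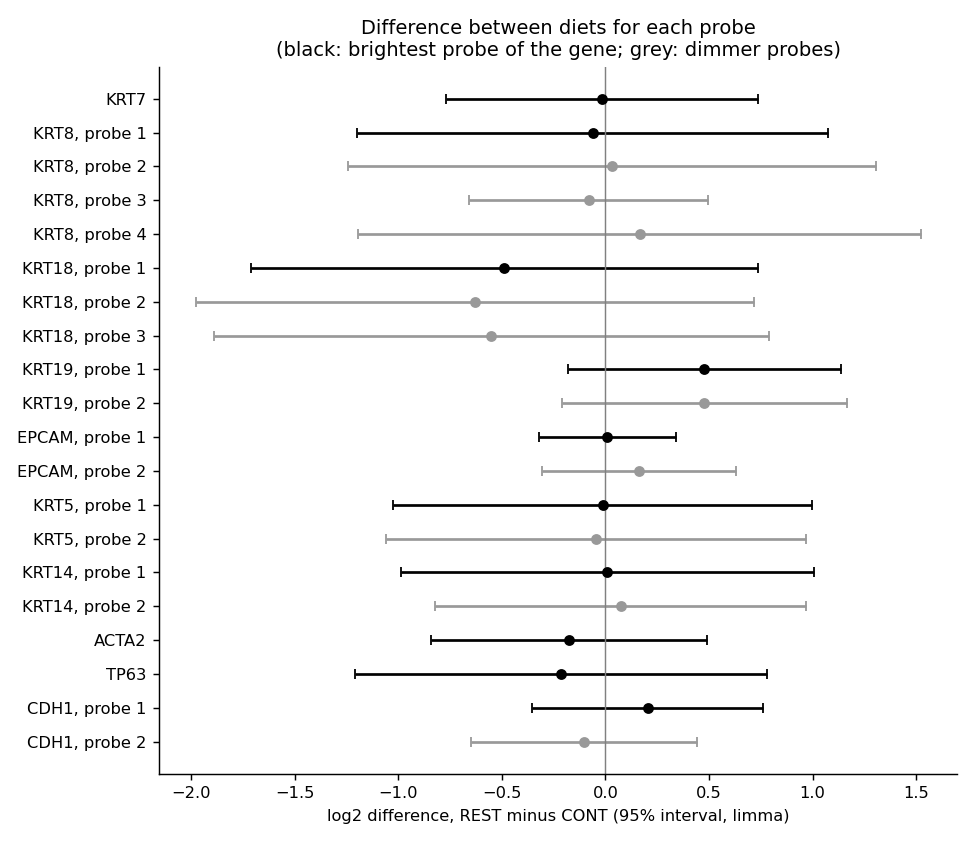
Log2 difference between REST and CONT (6 cows each) for the 20 probes of the 10 marker genes, with the 95% interval of limma's fit. Black points are the brightest probe of a gene and grey points its dimmer probes. Every interval includes 0, the longest belong to KRT8 and KRT18 and the shortest to EPCAM.

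The spread between individual cows was wide for most markers. KRT18 differed 11.6-fold between REST cow 2 and CONT cow 6, and KRT8 differed 9.95-fold between REST cow 2 and CONT cow 5. REST cow 2 lay well below the next lowest cow in both. Its KRT18 was 0.96, against 1.83 in REST cow 5, and its KRT8 was 2.40, against 3.68 in CONT cow 4. The range over the 12 cows was 5.62-fold for KRT14, 5.19-fold for KRT5, 4.11-fold for ACTA2, 3.98-fold for KRT7 and 3.92-fold for KRT19. It was 2.54-fold for CDH1 and 1.55-fold for EPCAM. To place these values, the SD within diets was computed for the 9001 named genes that were above background on all arrays, and its median was 0.33. KRT18 (SD 1.08) stood at the 96.6th percentile of these genes, KRT8 (1.00) at the 95.8th, KRT5 (0.88) at the 93.9th and KRT14 (0.87) at the 93.5th. EPCAM (0.21) stood at the 18.8th percentile.

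The same cows were high or low for luminal and basal keratins. In CONT cows 5 and 6 and in REST cows 1, 3 and 4, all 5 of KRT5, KRT7, KRT8, KRT14 and KRT18 lay above their means over the 12 cows. In CONT cows 2 and 3 and in REST cows 2 and 5, 0 of the 5 did. The highest median deviation of the 5 keratins was 1.25 in CONT cow 5, where each of them was at least 0.94 above its mean. The lowest was -0.79 in REST cow 2, where each of them was at least 0.75 below. The cows that were high came from all 3 slides, as did those that were low. In REST cow 2 KRT19 was 1.11 above its mean, the highest of the 12, while KRT7, KRT8 and KRT18 were the lowest.

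**Figure D3:**
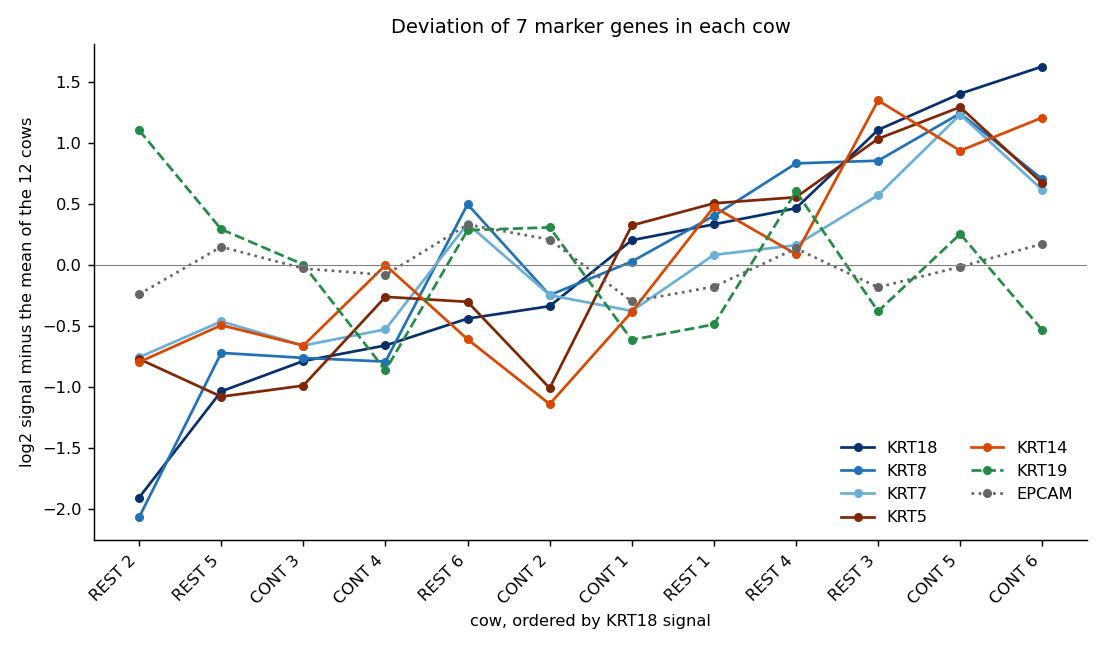
Deviation of 7 marker genes from their means over the 12 cows (log2 signal), with the cows on the x axis ordered by KRT18. The solid lines of KRT5, KRT7, KRT8, KRT14 and KRT18 rise together from REST cow 2 to CONT cows 5 and 6, EPCAM (dotted) stays within 0.334 of its mean, and KRT19 (dashed) is highest in REST cow 2.

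The correlation of the log2 signals across the 12 cows was computed for all 45 pairs of markers, with permutation p-values (100000 resamples, two-sided) adjusted over the 45 pairs by Benjamini-Hochberg. A total of 17 pairs passed 0.05, and all 17 correlations were positive. They include all 10 pairs among KRT5, KRT7, KRT8, KRT14 and KRT18, a set that was put together after these values were seen. The filament partners KRT8 and KRT18 gave the highest Pearson correlation (r = 0.91, Spearman rho = 0.89, permutation p = 6.00e-05, adjusted p = 0.00270). The highest Spearman correlation was that of KRT7 with KRT8 (rho = 0.95, r = 0.89). The basal partners KRT5 and KRT14 gave r = 0.88 (rho = 0.89, permutation p = 2.40e-04, adjusted p = 0.00288). Without the 2 cows farthest from the median of the first gene named, r was 0.83 for KRT8 with KRT18 and 0.88 for KRT5 with KRT14.

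Pairs across the layers correlated as well. KRT5 with KRT8 gave r = 0.80 (rho = 0.80, permutation p = 0.00144, adjusted p = 0.00810), and KRT5 with KRT18 gave r = 0.88 (rho = 0.87, permutation p = 2.80e-04, adjusted p = 0.00288). The lowest of the 10 pairs was KRT14 with KRT8, with r = 0.68 (rho = 0.73, permutation p = 0.0134, adjusted p = 0.0377). Over the 10 pairs r was 0.75 to 0.96 in CONT alone and 0.67 to 0.94 in REST alone. It was 0.63 to 0.92 after the means of diet and slide were removed. Without the 2 cows farthest from the median of 1 gene of each pair, it was 0.64 to 0.90. Without CONT cow 6, a comparison added after the data were seen, 9 of the 10 pairs passed (r from 0.67 to 0.94), KRT14 with KRT8 being the one that did not, and 12 of all 45 pairs passed in place of 17. KRT8 and KRT18 are direct neighbours in the RefSeq annotation of the ARS-UCD2.0 assembly, with 0 protein-coding genes between them. KRT5 and KRT7 lie on the same chromosome, and KRT14 lies on another with KRT19, from which 1 protein-coding gene separates it.

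CDH1 passed the threshold with 4 of these 5 keratins, with r from 0.62 to 0.76 over all 5. TP63 passed with KRT14 (r = 0.72, rho = 0.60, permutation p = 0.00870, adjusted p = 0.0306), KRT18 and CDH1. The value for KRT14 with TP63 fell to 0.38 without the 2 cows farthest from the median of KRT14. In CONT alone r was 0.80, in REST alone 0.67, and after removal of diet and slide means 0.76. For this pair r was -0.16 with normexp background correction, a model-based alternative to the software's subtraction. ACTA2 passed with 0 of the 5 keratins (r from 0.37 to 0.61). With KRT14 it gave r = 0.37 (rho = 0.35, permutation p = 0.248, adjusted p = 0.385). CONT cow 6 was the lowest of the 12 for ACTA2 and among the highest for the keratins. Without that cow ACTA2 passed with KRT5 (r = 0.81, permutation p = 6.40e-04, adjusted p = 0.00517) and KRT18 (r = 0.76, permutation p = 0.00607, adjusted p = 0.0273). It did not pass with KRT7 (r = 0.71, permutation p = 0.0164, adjusted p = 0.0569), KRT14 (r = 0.69, permutation p = 0.0181, adjusted p = 0.0582) or KRT8 (r = 0.61, permutation p = 0.0436, adjusted p = 0.0880). Of the pairs with CDH1 and TP63 named above, KRT5 with CDH1 was then the only one that passed (r = 0.73, permutation p = 0.0116, adjusted p = 0.0436).

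For KRT19 and EPCAM no correlation with another marker passed the threshold. KRT19 passed with 0 of the 5, with r from -0.46 to -0.11. For KRT7 with KRT19 r was -0.11 (rho = -0.13, permutation p = 0.723, adjusted p = 0.834). In REST alone the 5 values were -0.78 to -0.62 and in CONT alone -0.23 to 0.32, and the difference between the diets was not tested. By its brightest probe, EPCAM passed with 0 of the 9 other markers, with r from -0.37 to 0.27. With its adhesion partner CDH1 it gave r = 0.08 (rho = 0.10, permutation p = 0.790, adjusted p = 0.867). That last value depends on the probes used and on the processing. It was 0.48 with the probes of each gene averaged and 0.57 with quantile normalization, without passing the threshold. The second EPCAM probe, which correlated with the brightest at 0.598, was not set against the other markers by itself.

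**Figure D4:**
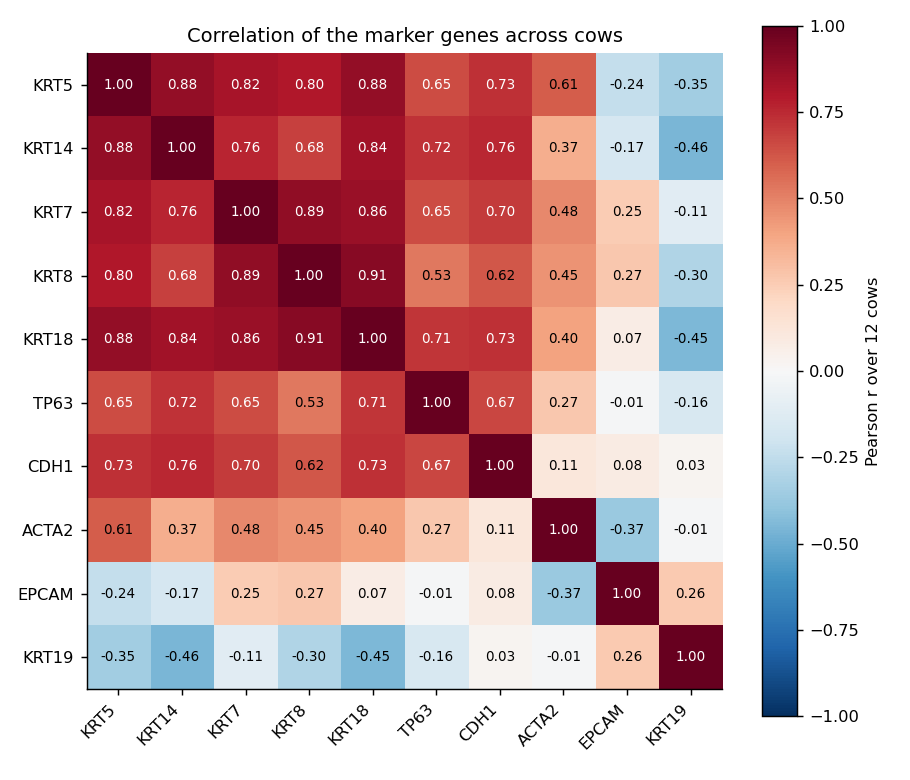
Pearson correlation across the 12 cows for each pair of the 10 marker genes (log2 signals of the brightest probes), with red for positive and blue for negative values. The block of KRT5, KRT14, KRT7, KRT8 and KRT18 holds values from 0.68 to 0.91, while the rows of EPCAM and KRT19 hold values from -0.46 to 0.27.

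Probes of the same gene mostly repeated the pattern. The 3 probes of KRT18 correlated with each other at r = 0.992 to 0.995 across the 12 cows, those of KRT5 at 0.986, of KRT19 at 0.930, of KRT14 at 0.839 and of CDH1 at 0.835. The EPCAM probes correlated at 0.598, and the second of them ranged 2.44-fold over the cows where the brightest ranged 1.55-fold. KRT8 was an exception. Numbered by brightness, the first, the second and the fourth probe correlated at 0.974 to 0.984, and the third probe correlated with them at -0.465 to -0.375. That probe was highest in CONT cow 4 and lowest in CONT cow 6, and it ranged 2.78-fold over the cows, where the other 3 ranged from 9.95-fold to 10.6-fold. All 4 carry the same RefSeq accession, and what the third probe detects was not tested.

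Genes that act with the markers were taken from lists of known function, and 0 of their members passed the adjusted threshold. The contractile genes of myoepithelial cells, such as the myosin MYH11, calponin CNN1 and transgelin TAGLN, had lower means in REST for 9 of 10 (median -0.15), with 0 at an unadjusted p under 0.05, and without CONT cow 5 the median was 0.10. The oxytocin receptor OXTR differed by -0.50 ± 0.25 (SE, exact permutation p = 0.087), and 1 of 6 REST cows lay above the CONT mean. With slide as a block OXTR was at -0.74 ± 0.23 (limma's unadjusted p = 0.00825, adjusted p = 1 after rounding), and its unadjusted p was also under 0.05 with the probes averaged (-0.68), without CONT cow 5 (-0.65) and without REST cow 2 (-0.63). The difference was smaller without CONT cow 1 (-0.39), REST cow 6 (-0.39), REST cow 3 (-0.41) or CONT cow 3 (-0.43), with limma's unadjusted p from 0.138 to 0.159. The basal partners, which include KRT17, the integrins ITGA6 and ITGB4 and the hemidesmosome collagen COL17A1, had higher means for 7 of 8 (median 0.20, and 0.08 to 0.34 when 1 cow was left out). COL17A1 was the exception, at -0.45 ± 0.32 (SE), and at -0.20 with the probes of each gene averaged. It was at -0.29 without CONT cow 6 and at -0.66 without REST cow 3, where its unadjusted p of limma was 0.0429. Of the luminal regulators 8 of 10 had higher means (median 0.11, and 0.07 to 0.18 with 1 cow left out), with the progesterone receptor PGR at 0.37 ± 0.27 (0.16 without CONT cow 6). Of the luminal surface genes 6 of 7 had higher means (median 0.18, and 0.05 to 0.33 with 1 cow left out). The water channel AQP5 was at -0.52 ± 0.71 (-0.25 without CONT cow 6, -0.06 without REST cow 2, -0.95 without CONT cow 3 and -0.10 with slide as a block). Partners in adherens junctions and desmosomes had lower means for 10 of 12 (median -0.14, and -0.01 with slide as a block), with plakophilin PKP1 at -0.30 ± 0.44 (-0.13 without CONT cow 6, and near 0 without CONT cow 5). The other keratins were split, with 4 of 9 higher (median -0.01, which took either sign with 1 cow left out) and KRT80 at -0.39 ± 0.53 (-0.11 to -0.67 with 1 cow left out). On all 12 cows, with no term for the slide and the brightest probe of each gene, 0 genes of these 6 lists had an unadjusted p under 0.05, where 334 of the 12639 named genes (2.64%) did.

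Markers of the other cells of the biopsy were read beside these. All 8 milk secretory genes had higher means in REST (median 0.35), with 0 at an unadjusted p under 0.05. The median was 0.08 without CONT cow 6, 0.17 without REST cow 2, 0.13 with slide as a block and 0.06 with quantile normalization. In this list GLYCAM1, a milk mucin-like protein, differed by 0.50 ± 0.45 (SE), and by 0.11 ± 0.32 without CONT cow 6. The mean level of that list was 7.16 to 9.36 in CONT and 7.75 to 9.73 in REST. All 7 endothelial markers had higher means (median 0.37, but 0.06 without CONT cow 6), 1 of them, von Willebrand factor VWF, at an unadjusted p under 0.05 (0.79 ± 0.30, and 0.503 ± 0.18 without CONT cow 6), where 1.63% of the named genes were higher at that level. Without REST cow 3 VWF was at 0.69 ± 0.32 and no longer under it (limma's unadjusted p = 0.0516). The endothelial list mean was -1.07 to 0.93 in CONT, with CONT cow 6 the lowest, and 0.32 to 1.22 in REST. Of the fibroblast markers 6 of 7 had lower means (median -0.60, and -0.39 with slide as a block), and 3 of them, COL1A1, COL1A2 and LUM, had an unadjusted p under 0.05, where 1.01% of the named genes were lower at that level. COL1A1 and COL1A2 were no longer under it when the slide was a block (-0.39 and -0.45) or under normexp (-0.58 for both). Each also lost it when any 1 of 7 cows was left out (-0.53 to -0.74 and -0.44 to -0.65), and these cows were not the same for both genes. COL1A1 was also not under it with quantile normalization (-0.70) or with the probes averaged (-0.45). The collagen-binding lumican LUM, under it in every setting run, differed by -0.84 ± 0.24, and 0 of 6 REST cows lay above the CONT mean. The fibroblast list mean was 2.03 to 2.58 in CONT and 1.06 to 2.52 in REST. The vascular mural markers had higher means for 4 of 5 (median 0.07, and -0.0013 without CONT cow 6), with MCAM at -0.50 ± 0.41 (-0.69 without CONT cow 6, and -0.31 to -0.76 with 1 cow left out). The adipocyte markers had higher means for 3 of 4 (median 0.18, and -0.003 without CONT cow 1), with the fatty acid carrier FABP4, the only one above background on all arrays, at 1.205 ± 0.62 and at 0.59 ± 0.31 without CONT cow 6. The leukocyte markers were split evenly, 3 of 6 (median 0.01, which also took either sign), with CD14 at 0.37 ± 0.42 and at 0.06 without CONT cow 6. The adjusted p, by Westfall-Young or by Benjamini-Hochberg, was 1 after rounding for each of the genes named here. The part of these cells in the values of the 10 markers was not tested between the diets.

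Across cows, the 10 markers were set against the means of 12 such lists and 3 measures of the array, 150 relations that were chosen after the data were seen and adjusted together by Benjamini-Hochberg. A total of 7 passed 0.05, with 5 (normexp) to 17 (slide and diet means removed) under the other settings and 2 without CONT cow 6. These 2 were ACTA2 with the contractile genes (r = 0.93, permutation p = 2.40e-04, adjusted p = 0.0217) and CDH1 with the basal partners (r = 0.88, permutation p = 2.90e-04, adjusted p = 0.0217). ACTA2 followed the contractile genes (r = 0.94, rho = 0.87, permutation p = 4.00e-05, adjusted p = 0.00375), with r = 0.97 in CONT, 0.75 in REST and 0.81 without the 2 farthest cows. For the lists, these are the 2 cows farthest from the median of the list mean. With the vascular mural markers ACTA2 gave r = 0.45 (rho = 0.48, permutation p = 0.141, adjusted p = 0.356). CDH1 followed the basal partners (r = 0.91, rho = 0.94, permutation p = 5.00e-05, adjusted p = 0.00375), with 0.84 without the 2 farthest cows. With normexp background correction this value was 0.61 and did not pass. TP63 with the basal partners (r = 0.80, rho = 0.76, permutation p = 0.00224, adjusted p = 0.0480) lost the threshold under 3 of 5 other settings and was 0.19 with normexp.

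KRT18 was low where the milk secretory genes were high (r = -0.86, rho = -0.83, permutation p = 3.90e-04, adjusted p = 0.0195). The value was -0.83 in CONT, -0.87 in REST, -0.84 after removal of diet and slide means and -0.73 without the 2 farthest cows. It stayed past the threshold under the 5 other settings tried on all 12 cows. Without CONT cow 6, the lowest for the milk secretory genes, it was -0.81 and missed the threshold (permutation p = 0.00241, adjusted p = 0.0975). KRT14 gave -0.79 (rho = -0.72, permutation p = 0.00224, adjusted p = 0.0480) with the same list, a call lost with normexp (-0.73) and with the probes of each gene averaged (-0.72), and r was -0.70 for each of KRT5, KRT7 and KRT8 (permutation p = 0.0109 to 0.0111, adjusted p = 0.112), which did not pass. KRT19 gave 0.63 (rho = 0.57, permutation p = 0.0274, adjusted p = 0.142). With the fibroblast markers KRT18 gave 0.77 (rho = 0.78, permutation p = 0.00271, adjusted p = 0.0508), which did not pass, with 0.86 after removal of diet and slide means, 0.53 without the 2 farthest cows and 0.75 without CONT cow 6. KRT19 gave -0.69 with them (rho = -0.52, permutation p = 0.0125, adjusted p = 0.112), at -0.94 in REST and 0.28 in CONT. KRT18 also passed with the single adipocyte gene FABP4 (r = -0.75, rho = -0.81, permutation p = 0.00127, adjusted p = 0.0381), and KRT7 with the adherens and desmosome partners (r = 0.82, rho = 0.76, permutation p = 8.80e-04, adjusted p = 0.0330), where r was 0.59 without the 2 farthest cows. Of these, the first missed the threshold with normexp (-0.71) and the second with the mean over all probes (0.77). The 75th percentile of the array, by which each signal was scaled, correlated with KRT18 at 0.63 (rho = 0.52, permutation p = 0.0273, adjusted p = 0.142) and with KRT19 at -0.68 (rho = -0.57, permutation p = 0.0141, adjusted p = 0.112). With quantile normalization in place of the shift, the correlation with the milk secretory genes was -0.84 for KRT18 and 0.24 for KRT19. The part of the scaling in these relations was not tested further.

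**Figure D5:**
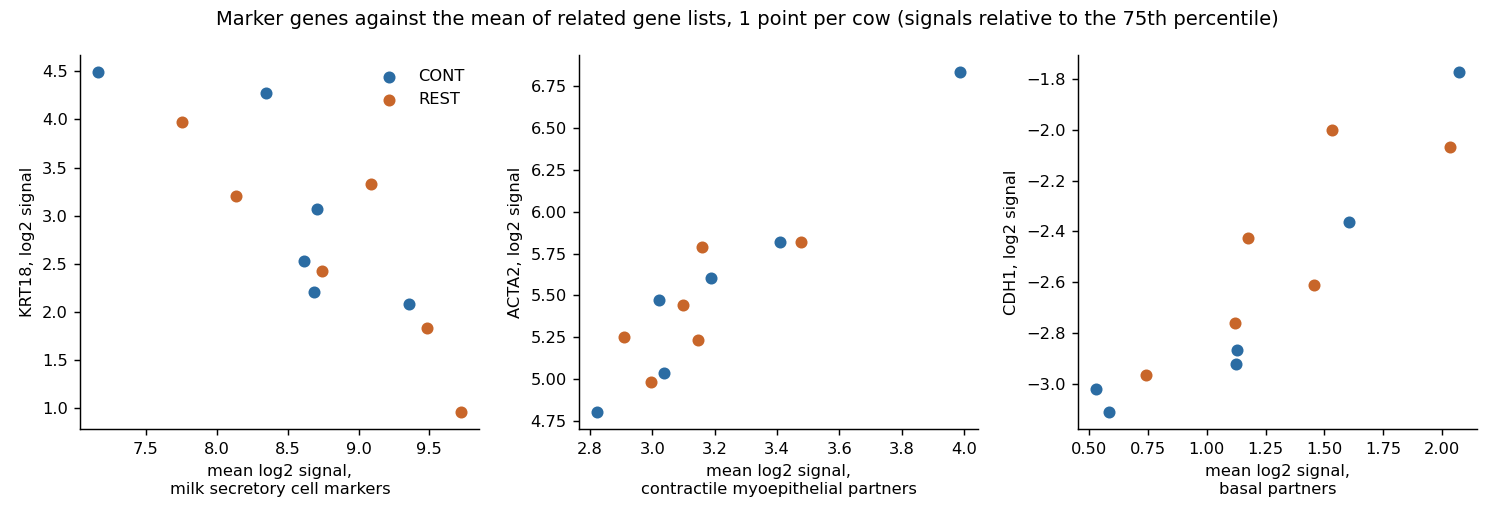
Log2 signal of KRT18, ACTA2 and CDH1 (y axes) against the mean log2 signal of the milk secretory, contractile and basal partner genes (x axes), with 1 point per cow, CONT in blue and REST in orange. KRT18 falls as the milk secretory mean rises (r = -0.86, and -0.81 without CONT cow 6 at the upper left), and ACTA2 and CDH1 rise with their lists (r = 0.94 and 0.91).

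The genes most like a marker across the 12 cows were sought among 8992 other named genes that were above background on all arrays. For KRT14 these were ATG4D (r = 0.95), NUP160 (0.93), EXOC3L4 (0.92), BCL2 (0.92) and BCAS4 (0.92). For KRT8 they were NFKBIE (0.96), TMEM229B (0.95), ARHGEF10L (0.94), CD52 (0.94) and ASRGL1 (0.94). The same search was run after the data were seen for 5 other markers. The closest to KRT5 was another keratin, KRT6B (0.96), followed by KRT75 (0.95), and whether the probes of these related keratins tell them apart was not tested. The closest to KRT18 was CDC42EP3 (0.99), to KRT19 PNPLA2 (0.92) and to EPCAM CALCOCO2 (0.93). FSTL3 (0.94) and the contractile gene TAGLN (0.91) were closest to ACTA2. These correlations are descriptions over 12 cows, and all genes of a cow were read on 1 array. How common such values were differed by marker, since 5.53% of the 8992 genes had r above 0.8 with KRT18 and 7.45% had r below -0.8, whereas the shares were 0.100% and 0.0222% for EPCAM.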

How the data were processed

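Mammary RNA of 12 cows was measured on one-color arrays. The authors obtained spot intensities with Agilent Feature Extraction (11.0.1.1 per the file headers), and the deposited intensity values are background-corrected but not normalized between arrays. Control spots were left out, outlier spots were set to missing, and log2 intensity minus the 75th percentile of each array was averaged per probe. REST and CONT were taken from the diet label and compared over all 43653 probes with limma 3.58.1 (R 4.3.3), two-sided, with the Westfall-Young adjustment that the study's methods name (here over 100 splits) and Benjamini-Hochberg beside it (threshold 0.05). Single values were tested by exact permutation over 924 arrangements. The number of arrays limits the precision.

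The members and gene lists were chosen with earlier results of these data known. Named were all 10 markers and, per list, the gene with the lowest unadjusted p under 0.05, otherwise the one with the largest change, above background on all arrays, and the 5 genes most correlated with KRT14 and KRT8. Single genes named besides these are examples or exceptions chosen after their values were seen. The array's annotation (UMD 3.1) and the RefSeq table (ARS-UCD2.0) belong to different assemblies, and no positions are given. The procedure was tested on simulated data. Alternatives were other normalizations, filters, slide as a block and leaving out each cow. The correlations without CONT cow 6 were added after the data were seen.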

Additional observations from a re-analysis of the deposited data

Results flagged for a closer look

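In 86 groups of 6 cows (the 20 marker probes, the means of the lists with more than 1 gene above background, and the 12 genes named from the lists, each in both diets), 6 had a cow farther from the others than Dixon's 95% limit, where chance gives about 4.3. A list mean and a gene of that list are not independent. None of them was a marker probe. CONT cow 6 was the lowest of its group in 5. Its mean log2 signal was -1.07 for the endothelial markers (0.69 to 0.93 in the other 5), and von Willebrand factor VWF in that list was at 0.12 (1.502 to 2.03 in the others). The mean of the other keratins was -1.99 (-0.80 to -0.11 in the others). GLYCAM1 was at 6.44 (8.44 to 9.34 in the others). FABP4 was at 2.87 (5.78 to 7.35 in the others). In REST, COL17A1 was at 2.03 in cow 3 (0.51 to 0.99 in the others).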

How the results depend on the processing

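No paired analysis was possible because the cow numbers were given in accession order and pair no cows. In every setting 0 markers and 0 of all probes were called, by Westfall-Young or by Benjamini-Hochberg, and 377 to 1739 of the probes had an unadjusted p under 0.05 where all were tested. The signs of 6 small differences changed, that of ACTA2 only without CONT cow 5. EPCAM was -0.0471 and KRT14 -0.0473 with a median shift, which moved the median of all probes from -0.02 to -0.08. KRT14 was -0.0215 and KRT5 0.05002 with normexp. With slide as a block KRT5 was 0.13, KRT7 0.18, KRT8 0.18, KRT14 0.20 and KRT18 -0.28. KRT8 was 0.0131 as the mean of its probes. Leaving out 1 cow in turn gave -0.336 to 0.0717 for ACTA2, with the highest value without CONT cow 5, -0.0563 to 0.0581 for EPCAM, -0.26 to 0.25 for KRT14, -0.22 to 0.24 for KRT5, -0.15 to 0.23 for KRT7 and -0.24 to 0.34 for KRT8. KRT18 (-0.76 to -0.16), TP63 (-0.55 to -0.01), KRT19 (0.30 to 0.62) and CDH1 (0.11 to 0.38) kept their sign. Among the genes named from the lists, PKP1 alone changed sign (-0.494 to 0.00165, the highest without CONT cow 5). The causes were not tested. Between 12 and 18 of the 45 pairs passed under the other settings, and r among the 5 keratins was 0.63 to 0.95. For KRT7 with KRT19 r was 0.0839 with quantile normalization and 0.0480 with slide means removed. For EPCAM with CDH1 it was -0.0034 with slide means removed, -0.0906 without CONT cow 6 and 0.57 with quantile normalization. For KRT14 with TP63 it was -0.16 with normexp and 0.57, not past the threshold, with quantile normalization. The dim signal of TP63 limits its values.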
